A study of Mus musculus with 18 samples.

Results

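Calcr and Nyap2 are a pair of genes whose transcripts were not counted at all before RANKL was given and were counted in every library after 3 days of it. Both were picked by name, as the lines of the table called Calcr and Nyap2, because they stood at or near 0 counts on day 0 and high on day 3, so they make up 2 of the 34745 genes in the table. Their rise from day 0 to day 3 is therefore the reason for their choice and is given below as a description, without a test.

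The libraries were made from bone marrow-derived macrophages (BMDMs), cells grown from mouse marrow with the growth factor M-CSF, and RANKL is the cytokine under which they fuse into osteoclasts, the cells that resorb bone. The marrow came from Zmat1 knockout mice, which lack the zinc finger gene Zmat1 in all tissues (Zmat1-/-), or from wild-type littermates, and all cultures received M-CSF. The 18 libraries fall into 6 groups of 3, labelled WT or KO and taken after 0, 1 or 3 days of RANKL. Nothing in the labels says whether the 3 libraries of a group came from separate mice or cultures, so the p-values below measure only the spread between libraries. Libraries held 13789775 to 17559958 counts. Zmat1 itself was counted in every library, with 32 to 91 counts in the 9 libraries labelled WT and 49 to 99 in the 9 labelled KO, so these counts do not follow the labels, and "KO" and "WT" are used here only as the names the libraries carry. The pair of WT day 1 libraries that both carry the number 1 are told apart by their titles, written with a single or a double hyphen. Other libraries of days 0 and 1, in both labels, also have the double hyphen, and no library of day 3 has it. Title style is therefore not balanced over the days.

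Calcr encodes the calcitonin receptor, a class B G protein-coupled receptor. Calcitonin is a peptide hormone made in the thyroid. Its binding to the receptor on osteoclasts inhibits bone resorption, through the stimulatory G protein Gs and cyclic AMP and through Gq and calcium release. The presence of the receptor is a classical mark that separates osteoclasts from the macrophages they come from. Receptor activity-modifying proteins (RAMPs) can bind the calcitonin receptor and turn it into a receptor for amylin, a related hormone. Nyap2 encodes a member of the NYAP family of phosphorylated adaptors, described mainly in neurons, where the protein is phosphorylated by the kinase Fyn, binds phosphoinositide 3-kinase (PI3K) and links it to the WAVE complex, which drives the branching of actin filaments.

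In the table, Calcr (ENSMUSG00000023964) lies on chromosome 6 from 3685680 to 3764714 on the minus strand, and Nyap2 (ENSMUSG00000054976) on chromosome 1 from 81076950 to 81341764 on the plus strand, in GRCm38. The mouse GENCODE M21 annotation of that build gives each gene 5 transcripts, with 4 different starts for Calcr and 5 for Nyap2. Since counts are given per gene, which start was used cannot be read from them. The RefSeq table of promoters (GRCm38.p6) holds 1 start for Nyap2 and 2 for Calcr, an outer one at the end of the gene's span and an inner one within it. The 250 bases before each start are printed because the transcripts of both genes appeared together, and capitals mark letters that matched one of the motifs searched.
Nyap2, chr1:81076700-81076949, plus strand: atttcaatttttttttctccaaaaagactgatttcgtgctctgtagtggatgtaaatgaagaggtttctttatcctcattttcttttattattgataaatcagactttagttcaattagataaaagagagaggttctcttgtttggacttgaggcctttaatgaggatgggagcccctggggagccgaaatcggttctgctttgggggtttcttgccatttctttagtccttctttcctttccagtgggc
Calcr, outer start, chr6:3764714-3764963, minus strand: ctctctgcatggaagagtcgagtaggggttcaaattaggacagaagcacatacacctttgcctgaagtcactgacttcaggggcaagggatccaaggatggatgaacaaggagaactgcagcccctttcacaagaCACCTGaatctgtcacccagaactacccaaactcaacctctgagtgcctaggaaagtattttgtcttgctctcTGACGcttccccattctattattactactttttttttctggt
Calcr, inner start, chr6:3763624-3763873, minus strand: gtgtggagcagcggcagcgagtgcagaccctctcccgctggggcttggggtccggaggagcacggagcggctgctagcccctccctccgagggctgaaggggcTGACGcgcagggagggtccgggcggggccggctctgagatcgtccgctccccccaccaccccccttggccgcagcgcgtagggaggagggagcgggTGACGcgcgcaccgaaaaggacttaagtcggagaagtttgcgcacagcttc

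The motifs searched on both strands were TGANTCA (the AP-1 site), GGAAAA (the core bound by NFAT factors), CANNTG (the E-box), its forms CACGTG and CATGTG (bound by MITF), GAGGAA (the core bound by PU.1) and TGACG (a core of the cyclic AMP response element). Both forms bound by MITF are also counted as an E-box. The Nyap2 window held no match to any of them. The outer Calcr window held 1 E-box, 115 bases before the start, and 1 TGACG, 42 bases before it. The inner Calcr window held TGACG 2 times, 147 and 51 bases before the start. Among 32851 promoter windows of the same length, 17.8% held TGACG, 66.2% an E-box, 6.75% the AP-1 letters, 20.4% the NFAT core and 23.3% the PU.1 core. CACGTG stood in 6.02% and CATGTG in 12.3% of the windows. The bases G and C made up 38.8% of the Nyap2 window, 46.0% of the outer and 70.8% of the inner Calcr window, beside a median of 52.4% over all windows. A match is a likeness of letters and no evidence of binding, and the lack of one says only that these letters are not in this window.

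Calcr was at 0 counts in each of the 3 WT and 3 KO libraries of day 0. It was again at 0 in each of the 3 WT and 3 KO libraries of day 1. On day 3 it had 260, 257 and 303 counts in WT libraries 1, 2 and 3, and 171, 226 and 118 in KO libraries 1, 2 and 3. The groups of day 3 stood clear of all earlier libraries, and within day 3 WT library 3 was the highest and KO library 3 the lowest.

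Nyap2 showed the same pattern, with 0 counts in all 6 libraries of day 0 and all 6 of day 1. On day 3 it had 397, 420 and 671 counts in WT libraries 1, 2 and 3, and 303, 386 and 264 in KO libraries 1, 2 and 3. As with Calcr, WT library 3 was the highest and KO library 3 the lowest.

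**Figure D1:**
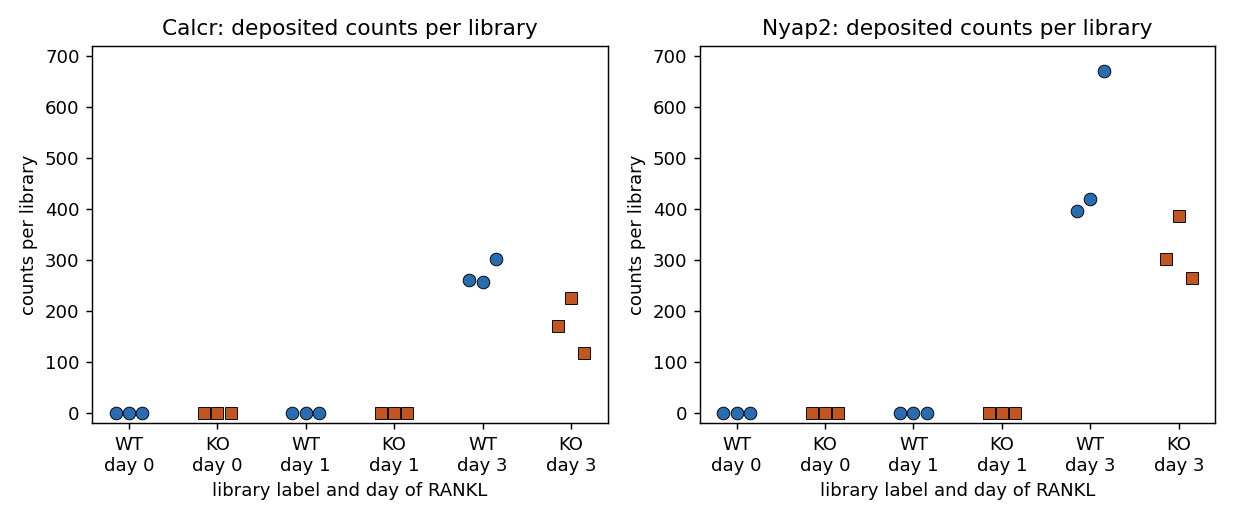
Deposited counts of Calcr (left) and Nyap2 (right) in each of the 18 libraries, by label and day of RANKL, with 1 point per library (circles WT, squares KO). All 12 points of days 0 and 1 lie at 0, and the 6 points of day 3 lie between 118 and 303 for Calcr and between 264 and 671 for Nyap2.

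The libraries of days 0 and 1 together held 179165495 counts, none of them from either gene, whereas the 6 day 3 libraries with 90928110 counts held 1335 from Calcr and 2441 from Nyap2. A count of 0 allows up to 3 counts in a library, which is 0.180 to 0.250 CPM (counts per 1000000 counts of the library, whose size was adjusted by TMM scaling) in these 12 libraries. This limit covers counting error only. The zeros are not the mark of a minimum set on the table, since it holds 16144 values of 1 count and 11124 of 2. The deposited FPKM values, which scale fragments by transcript length and library size, were 0 in the same libraries.

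On day 3 Calcr averaged 15.2 ± 1.79 CPM (SD, n = 3) in the WT libraries and 10.2 ± 3.57 in the KO libraries. Set against 3 counts in each library at 0, Calcr was at least 65.6-fold higher on day 3 than on day 0 in the WT libraries and at least 46.3-fold higher in the KO libraries. Against day 1 the bounds were at least 71.5-fold higher (WT) and at least 49.8-fold higher (KO). They are set by the depth of the libraries and say nothing of how much larger the rise was.

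Nyap2 averaged 27.6 ± 8.94 CPM in the WT libraries of day 3 and 18.9 ± 4.39 in the KO libraries. Its bounds were at least 119-fold higher (WT) and at least 85.4-fold higher (KO) than on day 0. Against day 1 it was at least 130-fold higher (WT) and at least 91.9-fold higher (KO).

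The bounds also limit what could have been present after 1 day. In the WT libraries Calcr on day 1 was at most 1.40% of its day 3 level and Nyap2 at most 0.769%. In the KO libraries the limits were 2.01% for Calcr and 1.09% for Nyap2. Both genes were thus first counted on day 3, and no time point between days 1 and 3 places their onset further.

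The day 1 level was also read for other osteoclast genes. Of a list of 19 osteoclast genes, 13 were called higher on day 3 than on day 0 in both labels (edgeR's quasi-likelihood test, adjusted p under 0.05), where 16.1% of the 14241 genes tested were called higher in both. For those 13 genes the day 1 level was 0.160% to 59.7% of the day 3 level in the WT libraries, with a median of 3.67%. In the KO libraries it was 0.135% to 41.8%, with a median of 3.99%.

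A day 1 share includes whatever a gene had before RANKL, so it does not measure onset, and Calcr and Nyap2 were chosen for having nothing on day 0. Against day 0, only Src, a kinase that osteoclasts need to resorb bone (adjusted p = 0.0383, edgeR), and Jdp2, a transcription factor (adjusted p = 0.0468), were called higher on day 1 in the WT libraries. They were 2 of the 19 genes, where 1.44% of all genes tested were called higher. Just above the cutoff lay Acp5 (log2 fold change 1.40, SE 0.35, adjusted p = 0.0522), Dcstamp (4.08, SE 1.03, adjusted p = 0.0525) and Ocstamp (4.06, SE 1.08, adjusted p = 0.0597). Of the 19, 5 had a log2 fold change below 0. In the KO libraries edgeR called 0 of the 19 higher on day 1 (0.0211% of all genes tested). At an unadjusted edgeR p under 0.05, in either direction, were 7 of the 19 in the WT and 5 in the KO libraries. The share of all genes at that threshold is not given here, so these counts have no background.

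In the WT libraries Tnfrsf11a, the receptor of RANKL, averaged 47.8, 90.6 and 152 CPM on days 0, 1 and 3, which gave the highest share of the 13. Nfatc1, the leading transcription factor of osteoclast formation, averaged 111, 114 and 638 CPM, with a day 1 share of 17.9%. Dcstamp and Ocstamp, which osteoclast precursors need to fuse, stood at 2.10% and 2.52% of their day 3 level on day 1. Ctsk, the collagen-cleaving protease cathepsin K, stood at 0.996%, after 19.0 CPM on day 0. Oscar, a costimulatory receptor, averaged 0.0258, 0.0986 and 61.5 CPM, and its share of 0.160% was the lowest. The limits of Calcr and Nyap2 lie within the range of these shares, and Ctsk and Oscar lay below the limit of Calcr in both labels.

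**Figure D2:**
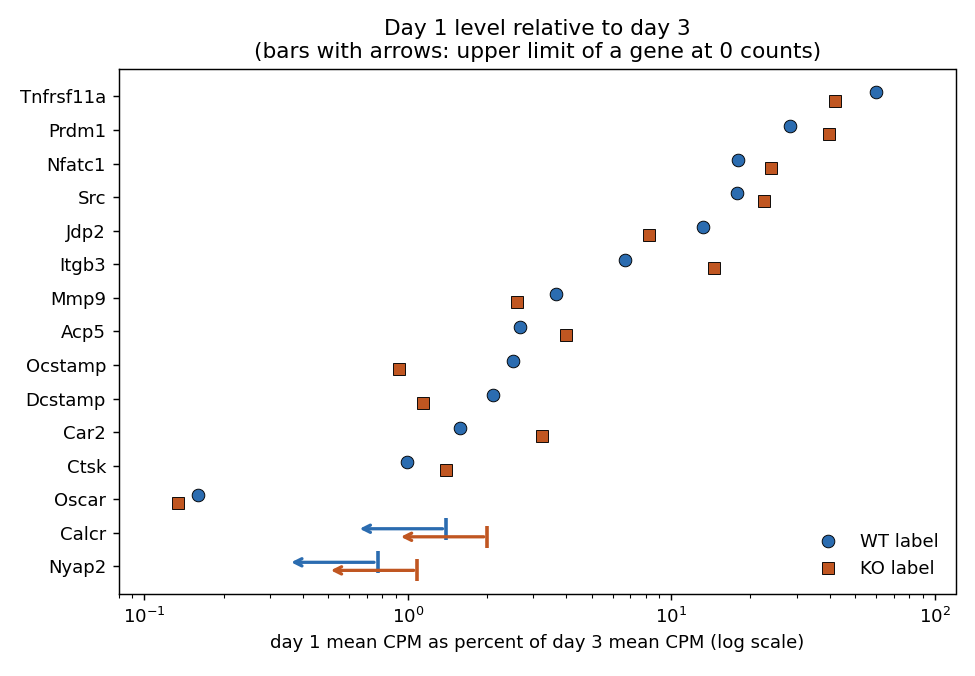
Mean CPM on day 1 as a percent of the mean on day 3 (log scale) for the 13 osteoclast genes called higher on day 3 in both labels (circles WT, squares KO) and for Calcr and Nyap2, which were at 0 counts on day 1 and are drawn as upper limits (bar with an arrow pointing to lower values). The limits of Calcr, 1.40% (WT) and 2.01% (KO), and of Nyap2, 0.769% and 1.09%, lie within the range of the 13 genes, whose lowest shares are those of Oscar at 0.160% and 0.135%.

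Set among all genes, 14522 were at 0 counts in each of the 12 libraries of days 0 and 1. Of these, 1128 had a count in at least 1 day 3 library and 15 had counts in all 6. Nyap2 and Calcr, which were chosen for this pattern, had the highest mean counts of the 15 and were the only 2 with at least 100 counts in every day 3 library. The next was Msln (mesothelin, a cell surface protein), with 85 to 189 counts. Corin, a serine protease that activates the heart's natriuretic peptide, had 28 to 74, and Pate4 24 to 75. C1qtnf3, a secreted relative of complement C1q, ranged widely from 7 to 177 counts, and the other 9 genes had at most 55 counts in any library.

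**Figure D3:**
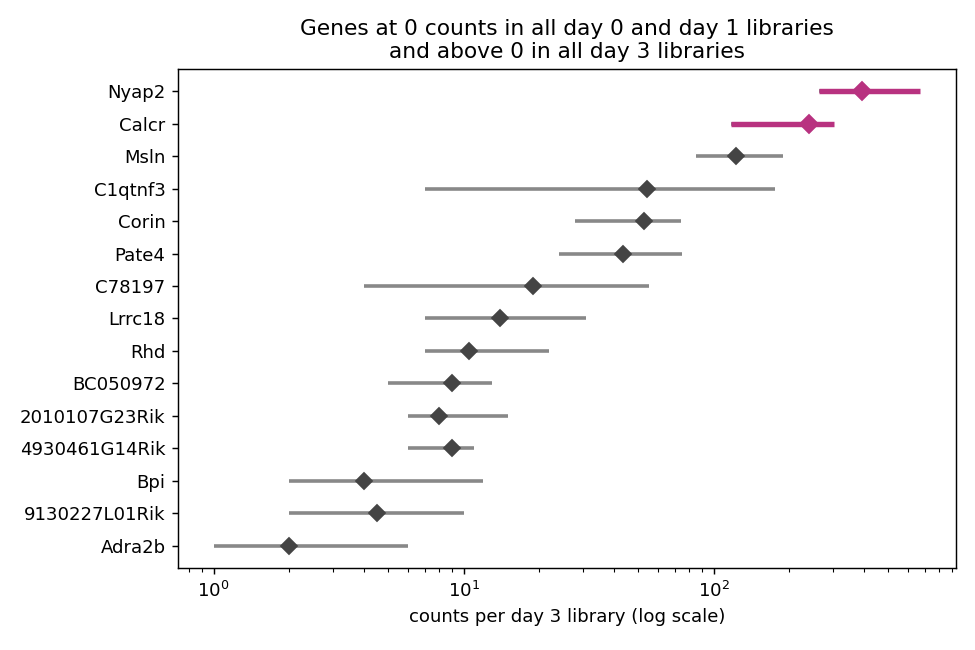
Counts per day 3 library (log scale) for the 15 genes at 0 counts in all 12 day 0 and day 1 libraries and above 0 in all 6 day 3 libraries, with the range over the 6 libraries as a line and the median as a diamond. Nyap2 (median 391.5) and Calcr (median 241.5) stand at the top, above Msln (median 123).

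A wider class, with 3 or fewer counts in each day 0 library and a mean of at least 5 CPM in the day 3 libraries of each label, held 8 genes. Oscar led it, at 61.5 ± 22.8 CPM in the WT and 52.1 ± 39.9 in the KO libraries of day 3. Siglec15, a sialic acid-binding receptor of osteoclasts, followed at 55.7 ± 11.8 and 41.2 ± 17.4 CPM. Nyap2 was the third and Calcr the fourth by mean CPM. The others were Serpind1 (heparin cofactor II), Lctl (a Klotho relative), Msln and Card14 (a scaffold of NF-kB signalling). Siglec15 had 56 counts over the 6 day 1 libraries and Oscar 7, and Serpind1, Lctl and Card14 had 3 or 4. Calcr, Nyap2 and Msln had none.

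Over all 18 libraries, the gene whose log2 CPM was most like that of Calcr among those tested was Nyap2, and the reverse held as well (Pearson r = 0.999). Next for both came Corin and Pate4 (r = 0.996 and 0.996 with Calcr, 0.996 and 0.994 with Nyap2). The 10 genes most like Calcr were, after these, Msln, Oscar, Mst1r, Serpind1, BC050972, Slc14a2 and Card14. The 10 most like Nyap2 held the same genes, except Ckmt1 (mitochondrial creatine kinase, r = 0.989) in place of Card14. Mst1r, the receptor tyrosine kinase RON, was the most abundant of them on day 3, at 127 CPM in the WT and 82.8 in the KO libraries. These correlations rest on the gap between 12 libraries at or near 0 and 6 that are not, so they rank likeness of pattern and have no p-value.

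Per count Nyap2 was the higher of the pair in every day 3 library, whereas per unit of length both were about level. The Nyap2 count was 1.53 to 2.24 times the Calcr count. On the FPKM scale Calcr was at 1.78, 1.96 and 2.32 in WT libraries 1, 2 and 3, and at 1.35, 1.81 and 0.823 in KO libraries 1, 2 and 3. Nyap2 was at 1.46, 1.73 and 2.76 FPKM in the WT libraries, in the same order, and at 1.29, 1.66 and 0.989 in the KO libraries. Calcr had the higher FPKM in libraries 1 and 2 of each label, and Nyap2 in library 3 of each. By mean FPKM of day 3, Calcr (1.68) ranked 9959th and Nyap2 (1.65) 9994th of the 14241 genes tested, so neither was abundant.

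Within each label the share of Calcr in the balance between the 2 genes was lowest in library 3, an observation made after the values were seen. Calcr made up 39.6% of their joint counts in WT library 1 (95% exact Clopper-Pearson interval 35.8 to 43.4) and 38.0% in WT library 2 (34.3 to 41.7), against 31.1% in WT library 3 (28.2 to 34.1). In the KO libraries the share was 36.1% in library 1 (31.7 to 40.6) and 36.9% in library 2 (33.1 to 40.9), against 30.9% in library 3 (26.3 to 35.8). The interval of library 3 lay below those of libraries 1 and 2 in the WT group, whereas in the KO group it overlapped them. The intervals cover counting error only, and no test was made. The labels do not say what libraries of the same number share.

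The comparison of KO with WT libraries on day 3 was the one that the rule did not use, although the difference in Calcr had been seen in earlier results of these data. Both genes were lower on average in the KO libraries, and neither difference passed the test. By deposited counts the 3 KO libraries lay below the 3 WT libraries for both genes. After scaling for library size the groups overlapped, because KO library 2 (13.8 CPM of Calcr, 23.6 of Nyap2) stood above WT library 1 (13.4 and 20.5). The other values of Calcr were 15.1 and 17.0 CPM in WT libraries 2 and 3, and 10.2 and 6.68 in KO libraries 1 and 3. For Nyap2 they were 24.7 and 37.6 CPM in WT libraries 2 and 3, and 18.05 and 14.95 in KO libraries 1 and 3. Over all genes tested, 13.3% had KO libraries that lay wholly below the WT libraries in CPM, and neither gene was among them. The like share by deposited counts is not given here.

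For Calcr the log2 fold change of KO against WT on day 3 was -0.57 (SE 0.32, 95% interval -1.34 to 0.20, adjusted p = 0.592, edgeR's quasi-likelihood test). For Nyap2 it was -0.55 (SE 0.31, 95% interval -1.28 to 0.18, adjusted p = 0.583). In this comparison 20 genes (0.14% of those tested) were called at an adjusted p under 0.05, of which 12 (0.0843%) were higher and 8 (0.0562%) lower in the KO libraries. With any 1 of the 6 day 3 libraries left out, 9 to 13 genes were called. The unadjusted p was 0.124 for Calcr and 0.118 for Nyap2, so neither met the looser threshold of a fold change below 0.66 at an unadjusted p under 0.05, which 0.864% of genes passed. An exact 2-sided permutation of the log2 CPM gave p = 0.2 for each gene, where 3 against 3 libraries cannot give less than 0.1. On day 1 both genes were at 0 in both labels, so no difference between the labels could be computed there. In that comparison 16 genes (0.112% of those tested) were called, and 131 without the WT library 1 whose title has a double hyphen. Averaged over days 1 and 3, with labels permuted within days, the log2 CPM differed by -0.31 for Calcr and -0.26 for Nyap2 (exact 2-sided permutation p = 0.2 for each), all of it from day 3. The intervals reach from a fall of more than 1 log2 unit to a small rise, so these libraries leave a difference of moderate size unsettled.

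**Figure D4:**
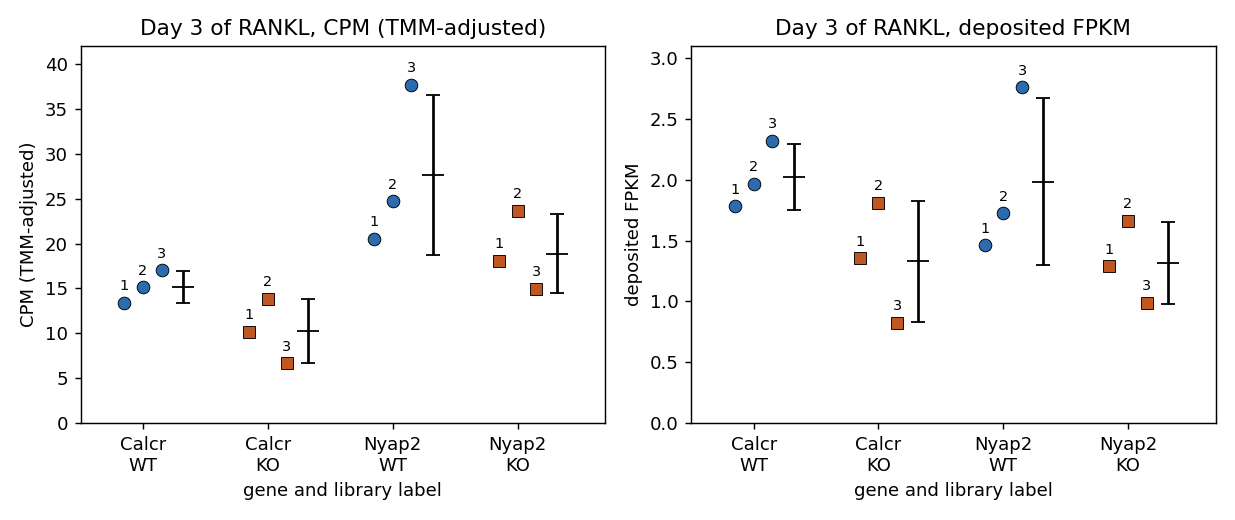
Calcr and Nyap2 in each day 3 library, in TMM-adjusted CPM (left) and deposited FPKM (right), with library numbers beside the points and the mean ± SD (n = 3) of each group as a bar. KO library 3 is the lowest and WT library 3 the highest point for both genes on both scales, and KO library 2 lies above WT library 1.

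Osteoclast genes on the whole showed the same lean. Of the 19 genes on the list, 18 had a log2 fold change below 0 in KO against WT on day 3, with a median of -0.56, beside a median of 0.02 over all genes tested. None of the 19 was called by edgeR or by the DESeq2 Wald test, and 5 had an unadjusted edgeR p under 0.05, as had 10.7% of all genes tested. The summed level of the list was 19088 to 26637.5 CPM in the WT libraries and 10248 to 20339 in the KO libraries of day 3. In bulk RNA, fewer cells of a type and less RNA per cell cannot be told apart, and this holds for Calcr and Nyap2 as for the list.

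Within day 3, the libraries with more Calcr were also those with more Nyap2. The order of the 6 libraries was the same for both genes (Spearman's rho = 1.00, exact permutation p = 0.00278, adjusted p = 0.00833 over 3 relations; Pearson's r = 0.88 on log2 CPM, exact p = 0.0208, adjusted p = 0.0312). Without KO libraries 1 and 3, the farthest from the median of Calcr, r was 0.96 over 4 libraries. KO library 3 was the lowest in both genes, followed by KO library 1, WT library 1, KO library 2, WT library 2 and WT library 3. Within each label 3 libraries are too few for a correlation.

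**Figure D5:**
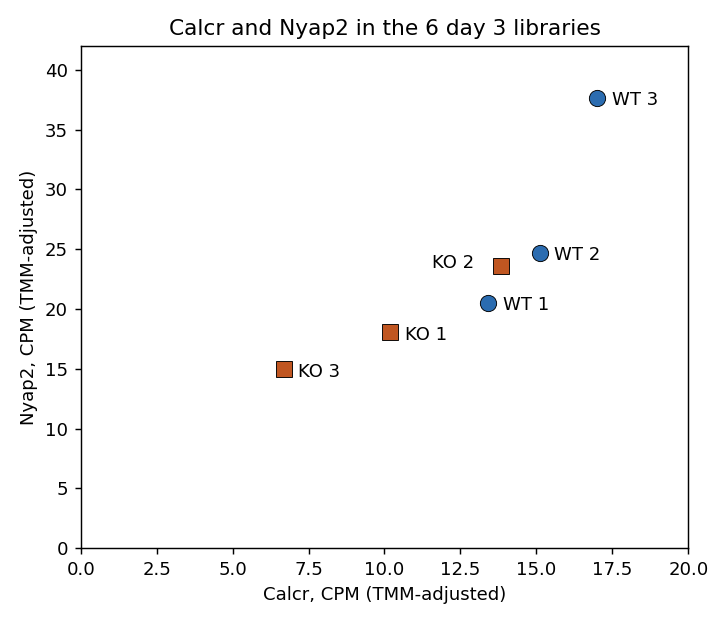
Nyap2 against Calcr in the 6 day 3 libraries, both in TMM-adjusted CPM, with 1 point per library (circles WT, squares KO). The points rise together from KO library 3 (6.68 and 14.95) to WT library 3 (17.0 and 37.6), where Nyap2 is higher relative to Calcr than in the other WT libraries.

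Both genes were also set against the mean log2 CPM of the 19 osteoclast genes in the same 6 libraries. This score ran from 7.53 in KO library 3 to 8.59 in WT library 3. With Calcr it gave r = 0.98 (exact p = 0.00833, adjusted p = 0.025) and rho = 0.77 (exact p = 0.103, adjusted p = 0.103). With Nyap2 it gave r = 0.85 (exact p = 0.0375, adjusted p = 0.0375) and the same rho, with the same p-values. Without KO libraries 1 and 3, r fell to 0.64 for Calcr and 0.73 for Nyap2 over 4 libraries, so the size of these relations rests in part on those libraries. All 3 measures come from the same libraries and share their scaling. The permutations, here and for Calcr with Nyap2, did not keep libraries within their label. A difference between the labels that both measures share therefore enters r, rho and their p-values.

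Markers of other cells were compared between the labels on day 3. Of 10 stromal or osteoblast markers, all 9 that could be tested were higher in the KO libraries (median log2 fold change 1.06), and 0 were called by edgeR or DESeq2 (which gave 2 of them no adjusted p), with 2 at an unadjusted edgeR p under 0.05, as had 10.7% of all genes tested. Their summed level was 9649 to 12603 CPM in the WT and 16789.5 to 24979 in the KO libraries. All 10 were counted in the KO libraries and 9 in the WT libraries, where Bglap, the osteoblast hormone osteocalcin, was at 0. Bglap had at most 2 counts in any of the 18 libraries and did not pass the filter, so its absence from the WT libraries tells nothing about the labels.

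All 7 neutrophil markers were higher in the KO libraries too (median log2 fold change 3.31). None was called by edgeR, 6 had an unadjusted edgeR p under 0.05 (10.7% of all genes tested), and DESeq2 called 5 higher, as it did 1.26% of all genes. They summed to 27.7 to 50.7 CPM in the WT and 71.1 to 834 in the KO libraries, and none of the 7 was at 0 in either group. The 10 macrophage markers summed to 6216 to 12928 CPM in the WT and 8566 to 17442 in the KO libraries, with 0 called by either tool and 0 at an unadjusted p under 0.05. The 8 B or T cell markers summed to 37.0 to 76.2 CPM and 45.6 to 91.5 CPM, with 0 called by either tool and 0 at an unadjusted p under 0.05. Most of that sum was Cd4, at a mean of 56.0 CPM in the WT and 67.5 in the KO libraries. The 5 that could be tested were all higher in the KO libraries (median log2 fold change 3.01). The part of these cells in the levels of Calcr and Nyap2 was not tested.

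Calcr is also known from muscle satellite cells and Nyap2 from neurons, so markers of both were examined. The muscle precursor genes Pax7, Myf5, Myod1 and Myog were at 0 counts in all 18 libraries, and of the list of 7 only Des, the muscle filament desmin, passed the filter on low counts. The list summed to 0.929 to 4.41 CPM in the WT and 3.40 to 14.2 in the KO libraries of day 3. Of 12 neuron markers, Dcx was at 0 in every library and 2 passed the filter. Syp fell from day 0 to day 3 in both labels (log2 fold change -1.99, SE 0.35, adjusted p = 0.000397 in the WT and -1.76, SE 0.35, adjusted p = 0.00134 in the KO libraries). Tubb3, the other, went the opposite way, from 2.25 CPM on day 0 to 8.60 on day 3 in the WT libraries and from 5.80 to 18.7 in the KO libraries. Its change did not pass the test (log2 fold change 1.91, SE 0.87, adjusted p = 0.079 in WT and 1.69, SE 0.84, adjusted p = 0.116 in KO). The neuron list summed to 9.09 to 11.6 CPM in the WT and 14.4 to 31.2 in the KO libraries. The part of such cells in the level of Nyap2 was not tested.

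The genes of calcitonin and amylin were at or near 0 on day 3. Calca, which encodes calcitonin and CGRP, averaged 0.0196 CPM in the WT libraries of day 3 and was at 0 in the KO libraries. Calcb was at 0 in all 18 libraries. Iapp, which encodes amylin, was at 0 in all 6 day 3 libraries, after 0.495 CPM in the WT and 0.872 in the KO libraries of day 0 and 0.556 and 5.27 on day 1. The day 1 mean of the KO libraries had an SD of 7.70 CPM (n = 3), and the highest Iapp count in any library was 220. Adm, which encodes adrenomedullin, averaged 24.9 CPM in the WT and 25.3 in the KO libraries of day 3, against 8.03 and 9.81 on day 0. Its change did not pass the test (adjusted p = 0.0871 in WT and 0.155 in KO). Adm2 did not pass the filter.

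None of the tested relatives and partners of Calcr was called higher on day 3 than on day 0. Calcrl, the receptor that serves CGRP and adrenomedullin, fell in the WT libraries (log2 fold change -1.13, SE 0.22, adjusted p = 0.000863), whereas in the KO libraries the value was -0.45 (SE 0.22, adjusted p = 0.113). Ramp1, which forms the CGRP receptor with Calcrl and an amylin receptor with Calcr, fell in both labels, from 21.5 to 2.07 CPM in WT (log2 fold change -3.37 with SE 0.82, adjusted p = 0.00387) and from 23.6 to 5.47 in KO (-2.11, SE 0.77, adjusted p = 0.0388). Ramp2 fell in WT from 2.61 to 0.191 CPM (log2 fold change -3.75, SE 1.09, adjusted p = 0.0112). In KO it went from 1.46 to 2.27 CPM (0.63, SE 0.92, adjusted p = 0.6). Between the labels on day 3, edgeR did not call Ramp2 (log2 fold change 3.54, SE 1.09, adjusted p = 0.292). The DESeq2 Wald test called it higher in KO, as it did 1.26% of all genes. Ramp3 did not pass the filter. Crcp, a component that couples these receptors to their signal, was at 15.4 CPM (WT) and 17.3 CPM (KO), against 17.1 and 19.0 on day 0. Of the 10 genes of this list other than Calcr, 6 were tested. On day 3, 0 were called higher and 3 lower in the WT libraries, and 0 higher and 1 lower in the KO libraries, where 23.7% and 26.5% of all genes tested were called higher and lower in WT and 20.2% and 22.3% in KO.

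Among 13 other class B receptors 3 passed the filter. Pth1r, the receptor of parathyroid hormone and a gene of osteoblasts, rose in the KO libraries from 3.78 to 39.1 CPM (log2 fold change of 3.36 with SE 0.85, adjusted p = 0.00601), and in the WT libraries it went from 2.83 to 11.9 (2.05, SE 0.82, adjusted p = 0.0502). Vipr1 and Vipr2 were at most 1.96 CPM on average on day 3. Crhr1 and Glp2r were at 0 in all 18 libraries.

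Most genes that carry the receptor's signal were counted before it was. Of 27 listed genes of Gs and cyclic AMP signalling, 26 had counts in at least 1 day 0 library of each label. Adcy8 was the exception, and Adcy1 was near 0, at 0.0993 CPM in WT and 0.289 in KO. All 18 genes of Gq and calcium signalling had counts on day 0. In which cells of these cultures the genes were transcribed was not tested. Of 24 genes of Gs and cyclic AMP signalling tested, 4 were called higher and 7 lower on day 3 in the WT libraries, and 5 higher and 6 lower in the KO libraries, beside 23.7% higher and 26.5% lower among all genes in WT and 20.2% and 22.3% in KO. Gnas, which encodes the Gs subunit, was at 364 CPM in the WT libraries of day 0 and 310 on day 3 (log2 fold change -0.23, adjusted p = 0.345). The adenylyl cyclase genes Adcy6 and Adcy2 and the regulatory subunit Prkar2a rose in both labels, with Adcy6 at log2 fold changes of 1.92 (SE 0.74, adjusted p = 0.0424) in WT and 1.97 (SE 0.74, adjusted p = 0.0428) in KO. The phosphodiesterase genes Pde4b and Pde3b, which break cyclic AMP down, fell in both, with Pde4b at -2.63 (SE 0.44, adjusted p = 0.000283) and -1.40 (SE 0.43, adjusted p = 0.0176). Adcy9 fell as well.

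Of 18 genes of Gq and calcium signalling, 7 were called higher and 4 lower on day 3 in the WT libraries, and 7 higher and 3 lower in the KO libraries. Among all genes the shares were 23.7% higher and 26.5% lower in WT, and 20.2% and 22.3% in KO. Plcb4, a phospholipase C that Gq activates, rose from 1.59 to 22.3 CPM in WT (log2 fold change 3.79 with SE 0.63, adjusted p = 0.000281) and from 2.80 to 16.5 in KO (2.55, SE 0.60, adjusted p = 0.00386). Itpr3, a calcium channel of the endoplasmic reticulum, rose by 2.83 (SE 0.43, adjusted p = 0.000132) and 2.47 (SE 0.42, adjusted p = 0.000517) on the log2 scale. Camk4, a calcium-dependent kinase, was at 1.16 CPM in WT and 2.88 in KO on day 3. The protein kinase C genes Prkcb and Prkcd and the calcineurin subunit Ppp3ca fell in both labels.

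Of the relatives of Nyap2, Nyap1 did not show its pattern, and Myo16 had too few counts to judge. Nyap1 was counted on every day, at 1.75 and 1.86 CPM in the WT and KO libraries of day 0 and 2.52 and 3.31 on day 3, and its change passed the test in neither label (adjusted p = 0.325 and 0.137). Myo16, an unconventional myosin that shares the NYAP motif and is the third member, did not pass the filter. It was at 0 in all day 0 libraries, and at 0.0368 CPM in WT and 0.213 in KO on day 3. Its highest count in any library was 6.

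All 6 PI3K genes examined were counted on every day. On day 3, 2 were called higher and 2 lower in the WT libraries, and 2 higher and 1 lower in the KO libraries, where the shares of all genes were 23.7% and 26.5% in WT and 20.2% and 22.3% in KO. Pik3r3, a regulatory subunit, rose by 2.17 (SE 0.65, adjusted p = 0.0132) in WT and 3.11 (SE 0.67, adjusted p = 0.00245) in KO on the log2 scale, and Pik3cb, a catalytic subunit, by 1.502 (SE 0.24, adjusted p = 0.000209) and 0.85 (SE 0.24, adjusted p = 0.0114). Pik3cd, the catalytic subunit of leukocytes, fell by 1.65 (SE 0.18, adjusted p = 1.62e-05) and 1.61 (SE 0.18, adjusted p = 3.65e-05). Pik3r1 and Pik3r2, further regulatory subunits, were called in neither direction.

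Of 14 genes of the WAVE complex and other NYAP partners, 12 were tested, with 4 called higher and 3 lower in WT and 1 higher and 3 lower in KO on day 3, against 23.7% and 26.5% of all genes in WT and 20.2% and 22.3% in KO. Nckap1 rose in both labels, from 15.6 to 52.8 CPM in WT (log2 fold change 1.75 with SE 0.66, adjusted p = 0.0396) and from 20.8 to 74.1 in KO (1.83, SE 0.66, adjusted p = 0.037). Its blood cell counterpart Nckap1l fell in both, as did Brk1 and Wasf2. Fyn, the kinase of NYAP proteins, was at 31.7 CPM in WT and 36.2 in KO on day 3 and was called in neither label. Cntn5, a neuronal adhesion protein, was at 0.0204 CPM in KO and at 0 in WT on day 3.

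Neighbouring genes did not share the switch. No other line of the table overlaps Calcr or Nyap2. Within 500 kb of Calcr lie 15 others, of which 8 passed the filter and 5 were at 0 in every library. The nearest tested gene, Ccdc132, ends 82149 bases from Calcr and was at 48.3 CPM on day 0 and 41.4 on day 3 in the WT libraries, a change that did not pass the test (adjusted p = 0.136). Tfpi2, a protease inhibitor gene 197881 bases from Calcr, rose in WT from 0.611 to 4.84 CPM (log2 fold change of 2.94 with SE 0.68, adjusted p = 0.00275), and in KO it went from 1.87 to 5.41 (1.52, SE 0.62, adjusted p = 0.0606). Samd9l fell in both labels, Gm43197 and Hepacam2 in WT, and Gm20559 in KO, whereas Bet1 and Gng11 were called in neither.

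Within 500 kb of Nyap2 lie 5 lines of the table. Only Dock10, a guanine nucleotide exchange factor 318423 bases away, passed the filter. It was at 108 CPM on day 0, 157 on day 1 and 137 on day 3 in the WT libraries, and its change from day 0 to day 3 did not pass the test in either label (adjusted p = 0.306 and 0.96). In the annotation the microRNA genes Mir653 (chromosome 6, 3721301 to 3721385) and Mir489 (3721897 to 3722003) lie in introns of Calcr on the same strand, and they were not analysed here.

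Other markers set the background against which both genes appeared. Of 10 macrophage markers, 8 fell in each label from day 0 to day 3, among them Fcgr1, Irf8 and Lyz2, where 19.7% of all genes tested fell in both labels. All 7 neutrophil markers fell in both labels, with Camp, Mpo and Ltf showing the largest falls. Of 5 B or T cell markers tested, 3 fell in WT and 2 in KO, as did 26.5% and 22.3% of all genes. Of 9 stromal or osteoblast markers tested, 6 rose in WT and 8 in KO, where 23.7% and 20.2% of all genes rose, and Lum and the collagen genes Col3a1 and Col1a2 were among them. The stromal list summed to 73.1 to 4054 CPM in the WT and 872 to 3081 in the KO libraries of day 0, and to 186 to 2477 CPM in the WT and 1903 to 7130 in the KO libraries of day 1. Whether these cells contributed to the day 3 levels of Calcr and Nyap2 was not tested.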

How the data were processed

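RNA sequencing of 18 libraries was deposited by the authors as 1 table, with a whole-number count and an FPKM value for each of 34745 genes in each library. StringTie and Ballgown were the programs with which the authors made the FPKM values. The submitters' processing notes name GRCm38.p4 and mm10, and the aligner and the program that made the counts are not given in the sources used here. Gene positions come from the table.

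The deposited counts entered edgeR 4.0.16 under R 4.3.3. The default filterByExpr left 14241 genes, libraries were scaled by TMM (trimmed mean of M values), and all 18 libraries were fitted as 6 groups of label and day (glmQLFit, glmQLFTest), and 2-sided p-values were adjusted over those genes (Benjamini-Hochberg). FPKM values served for levels per length and as an alternative. Log2 CPM used a prior count of 2. A group at 0 was set to 3 counts in each library for a bound. Scores, permutations and exact intervals were computed in Python 3.11.15 with SciPy 1.17.1, and the model was tested on simulated data. Alternatives used DESeq2 1.42.0 and limma 3.58.1.

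Calcr and Nyap2 and the gene lists were chosen with earlier results of these data known, in which both genes were already among the largest rises. Genes named are both members, Zmat1, the 10 tested genes most correlated with each member over 18 libraries, the genes induced from 3 or fewer counts to at least 5 CPM, the calcitonin and NYAP families, genes within 500 kb, and up to 3 genes in each direction from each other list that were called in both labels on day 3. Any further gene was picked with its values already seen. Of 6 relations planned within days 1 and 3, the 3 on day 1 could not be computed, since both genes were at 0, and adjustment was over the 3 on day 3. No label difference on day 1 and no contrast of day 3 with day 1 between the labels was fitted for either gene. Protein sequences were not used here. Promoter sequences are from RefSeq (GRCm38.p6), where both symbols matched.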

Additional observations from a re-analysis of the deposited data

How the results depend on the processing

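In each of 15 alternatives for KO against WT on day 3, both genes stayed lower in the KO libraries and neither was called (adjusted p 0.254 to 0.952 for Calcr and 0.27 to 0.946 for Nyap2). Leaving out 1 library moved the log2 fold change between -0.85 (without KO library 2) and -0.34 (without KO library 3) for Calcr, and between -0.74 (without KO library 2) and -0.26 (without WT library 3) for Nyap2. The difference averaged over days 1 and 3, to which the constant day 1 adds nothing, was -0.43 to -0.17 for Calcr and -0.36 to -0.14 for Nyap2 over its alternatives (exact p 0.1 to 0.4), in a design that cannot give p under 0.1. Between KO and WT libraries of the same number, deviations from the group means correlated at -0.393 to 0.321 on day 0 and -0.28 to -0.015 on day 3. Libraries of unlike number were not compared in this way, so these values do not show whether the numbers pair the labels. With the replicate number as a block the values were -0.62 for Calcr and -0.52 for Nyap2, with 20 genes called on day 3 and 13 on day 1, and neither gene was called. The block was not fitted for day 3 against day 0. The day 1 share of the day 3 level was 0 by the counts themselves, which no alternative could change.

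How many genes passed the threshold on day 3 (20) depended on the method: 51 with title style as a covariate, 235 by the DESeq2 Wald test, 158 in a fit on only the libraries compared, 37 from FPKM values, and 9 to 13 with 1 library left out. On day 1 (16) these were 31, 76, 3 and 19 for the first 4, and 13 to 131 with 1 library left out, the 131 without the WT library 1 titled with a double hyphen. The cause was not tested. Depth limits the bounds and day 1 limits of both genes, which are set by 3 counts in a library.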
